A study of Mus musculus with 8 samples.

Results

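The genes described here are 38 genes of general leukocyte identity, cytoskeletal signalling and the phagocyte NADPH oxidase, chosen by symbol from the gene table of an RNA sequencing study of mouse corneas. All 38 were among the 13437 genes of the table. Corneas came from C57BL/6 female mice, 6 to 8 weeks old, in a model of dry eye disease. In the BAC group, 5 µl drops of 0.2% BAC were put on both eyes 2 times a day, for 7 days; in the PBS group both eyes received PBS. Each group had 4 corneal libraries, numbered 1 to 4 by the labels. The number of mice or corneas behind a library is not given in the labels. All p-values therefore describe the spread between these libraries, which may be technical.

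Leukocytes carry a set of proteins that other cells of the cornea largely lack. Surface integrins and selectin ligands hold them to vessel walls and matrix. Kinases of the Src and Tec families, Syk, and the adaptor of the Lcp2 gene relay receptor signals to the exchange factor Vav1 and the small GTPase Rac2, which drive actin assembly through the WAVE complex and the Wiskott-Aldrich protein. In neutrophils and macrophages Rac2 also switches on the NADPH oxidase, in which a membrane core of Cybb and Cyba meets cytosolic subunits such as Ncf1 and Ncf4 and passes electrons from NADPH to oxygen, giving superoxide. The transcription factor PU.1, made from Spi1, binds DNA near many of these genes in blood cells. The healthy cornea holds few leukocytes, mostly macrophages and dendritic cells.

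Nearly the whole group of genes was higher in BAC corneas. With limma on log2(FPKM + 1), 36 of the 38 genes were higher and 1 was lower in BAC corneas at an adjusted p under 0.05, and Syk did not pass. Of all 12967 genes tested, 45.1% were higher and 22.6% lower. FPKM is a fragment count divided by transcript length and by library size. Gene and transcript values did not always match. In BAC corneas Irf8 was at 2.31 FPKM as a gene and 5.42 FPKM as its only listed transcript, while Cd53 was at 49.89 FPKM as both. Levels, shares and ratios set between different genes are therefore rough. The median change of the 38 genes was 2.65 on the log2 scale, beside 0.19 for all genes tested. The 4 BAC values lay above the 4 PBS values for 36 genes and below them for Fermt3, and the groups overlapped for Syk. Of all genes, 67.6% passed in either direction, 63.5% had groups that did not overlap, and 42.6% had all BAC values above the PBS values. For 23 genes the PBS mean was under 0.5 FPKM, the level the filter asked of the mean over all libraries. Those 23 were tested only because BAC corneas were high, so their direction was fixed beforehand. Of the other 15 genes, 13 were higher, 1 was lower and 1 did not pass.

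Bulk RNA cannot tell more leukocytes from more RNA per cell. Neutrophil markers summed to 486 to 1392 FPKM in BAC corneas and 4.77 to 29.3 FPKM in PBS corneas. All 10 measured markers of that list were higher, where 45.1% of all genes tested were. That share also stands beside the lists that follow. Mmp8, Retnlg and Trem1 were listed at 0 in every PBS library. Macrophage markers summed to 856 to 1104 FPKM in BAC corneas and 30.7 to 45.1 FPKM in PBS corneas, with all 12 higher. Markers of T and natural killer cells summed to 9.83 to 14.0 FPKM in BAC corneas and 0.0293 to 0.148 FPKM in PBS corneas, with all 5 of those tested higher. Dendritic and Langerhans cell markers summed to 244 to 284 FPKM in BAC corneas and 69.0 to 82.2 FPKM in PBS corneas, and all 5 tested were higher. That sum was led by Epcam, also an epithelial gene, and Ccr7 was listed at 0 in every PBS library. Of 8 markers of the cornea itself, 6 were lower and 1, the stromal gene Lum, was higher in BAC corneas. Of all genes tested 22.6% were lower. Krt12, the keratin of corneal epithelium, fell by 9.84 on the log2 scale, and was at 10.55 ± 2.98 FPKM in BAC corneas (SD, n = 4, as for every ± that follows), so the labelled tissue's defining gene was nearly lost there. As for the 38 genes, markers with a PBS mean under 0.5 FPKM were tested only because BAC corneas were high. These were 8 of the 10 neutrophil markers, 3 of the 12 macrophage markers, all 5 T and natural killer cell markers and 2 of the 5 dendritic cell markers, so their counts are descriptions. The part of any of these cell types in the changes of the 38 genes was not tested.

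The genes fell into a large set nearly silent in PBS corneas and a small set already present there. The PBS mean was under 1 FPKM for 29 genes, and all 29 were higher in BAC corneas, with BAC means of 1.58 to 49.9 FPKM. The other 9 were Arhgdib, Fermt3, Lyn, Ptpn6, Syk, Irf5, Plcg2, Cyba and Lst1. No BAC library was listed at 0 for any of the 38 genes, whereas 10 genes were listed at 0 in at least 1 PBS library. The highest of the 38 was Arhgdib in BAC corneas and Fermt3 in PBS corneas. The genes lie on 17 chromosomes.

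**Figure D1:**
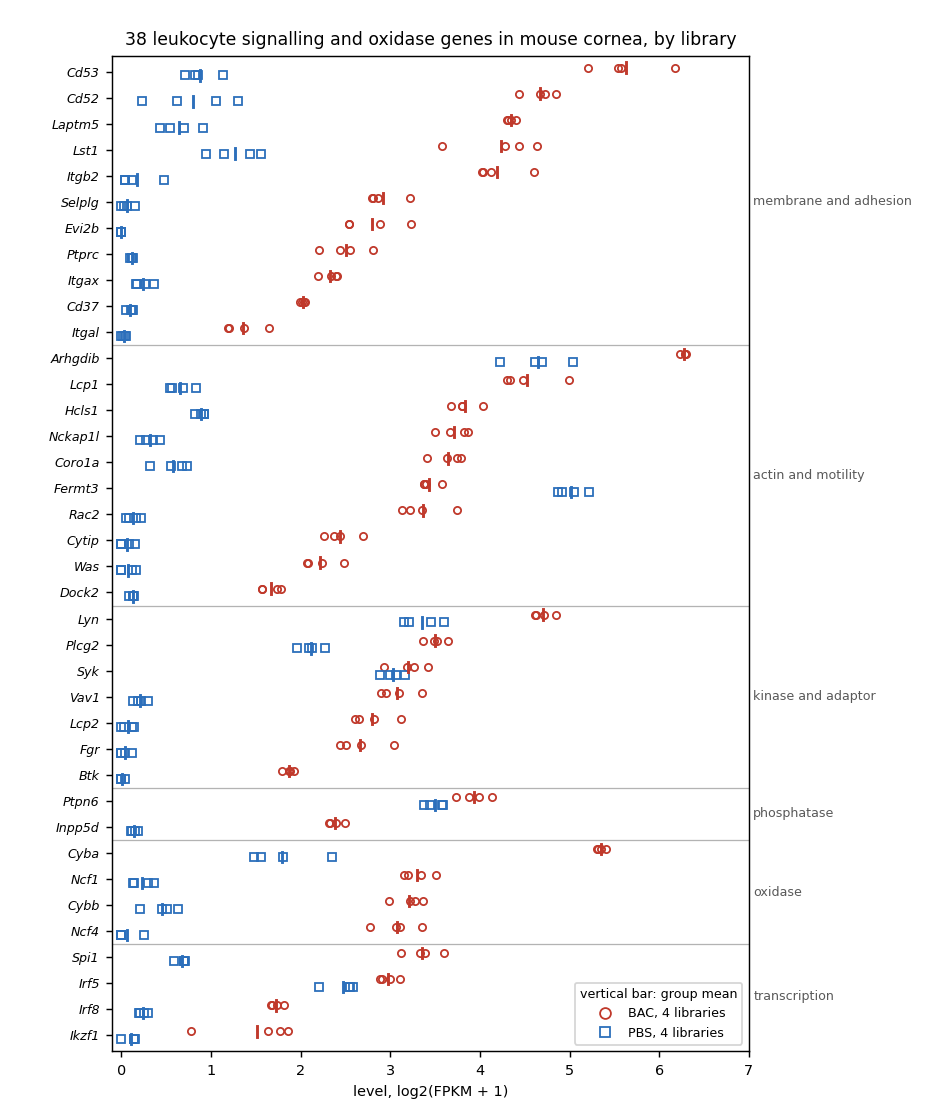
Level of each gene as log2(FPKM + 1) on the x axis in 4 BAC libraries (circles) and 4 PBS libraries (squares), with the group mean as a vertical bar and genes grouped by role. The BAC values lay above the PBS values for 36 genes and below them for Fermt3, and the groups overlapped for Syk.

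Promoter sequence is a feature that the choice of genes did not use, and it is shown because PU.1, an ETS family factor whose own gene was higher here, is known to bind near many leukocyte genes. RefSeq promoters on GRCm38.p6, 250 bases before to 50 after the start, were found for 28 of the 38 genes. Each gene was counted with the promoter nearest to the start of its highest transcript in BAC corneas. That promoter lay 55927 bases away for Inpp5d, which holds GAGGAA, and 5555 bases away for Ptpn6. The background was not selected in this way and holds every promoter listed. The core letters GAGGAA, read on both strands, were present in 14 of the 28 promoters (50.0%), against 28.3% of all 32851 promoters in the table. Within the 100 bases around the start, a window chosen after the positions had been seen, they were present in 13 of 28 (46.4%), against 11.3% of all promoters. A combined ETS and interferon regulatory factor pattern, GGAA and GAAA with 2 bases between, occurred in 2 promoters (7.14%), against 2.72% of all promoters. It overlaps the GAGGAA match in both, Cybb and Cytip. Repeats of GAAA with 2 bases between, bound by interferon regulatory factors, occurred in 3 (10.7%), against 3.44%. The RUNX core TGTGGT occurred in 6 (21.4%) against 16.8%, and TATAAA in 5 (17.9%) against 13.6%. A letter match is a description and shows no binding.

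Vav1, Btk, Dock2, Was, Evi2b and Cd53 are shown from 50 bases before to 30 after the start because their match lies beside it. Capitals mark GAGGAA or its reverse complement.
Vav1: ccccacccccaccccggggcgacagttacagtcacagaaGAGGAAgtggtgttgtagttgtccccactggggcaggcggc
Btk: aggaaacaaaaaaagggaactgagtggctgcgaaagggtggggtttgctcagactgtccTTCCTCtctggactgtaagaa
Dock2: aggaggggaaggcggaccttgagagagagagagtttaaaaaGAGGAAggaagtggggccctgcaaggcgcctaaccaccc
Was: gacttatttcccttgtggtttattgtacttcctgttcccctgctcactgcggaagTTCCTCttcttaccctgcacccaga
Evi2b: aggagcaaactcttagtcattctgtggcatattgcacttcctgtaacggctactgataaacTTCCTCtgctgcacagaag
Cd53: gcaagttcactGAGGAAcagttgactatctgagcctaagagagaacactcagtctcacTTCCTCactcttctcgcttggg
These stretches lie at chr17:57279050-57279129, plus strand, at chrX:134583111-134583190, minus strand, at chr11:34783876-34783955, minus strand, at chrX:8090462-8090541, minus strand, at chr11:79523733-79523812, minus strand, and at chr3:106790120-106790199, minus strand, all on GRCm38.p6. In Btk, Was and Evi2b the match follows the start and reads as the reverse complement, in Vav1 and Dock2 it precedes the start, and Cd53 has both kinds.

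Cybb, the catalytic subunit of the oxidase, and Fermt3, the gene that was lower with BAC, are shown from 250 bases before to 30 after the start, with the same capitals.
Cybb: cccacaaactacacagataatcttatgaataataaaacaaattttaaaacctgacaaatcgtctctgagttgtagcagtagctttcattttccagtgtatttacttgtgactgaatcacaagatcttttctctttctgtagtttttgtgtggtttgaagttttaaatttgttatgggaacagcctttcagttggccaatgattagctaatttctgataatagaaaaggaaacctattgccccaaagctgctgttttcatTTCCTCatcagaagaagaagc
Fermt3: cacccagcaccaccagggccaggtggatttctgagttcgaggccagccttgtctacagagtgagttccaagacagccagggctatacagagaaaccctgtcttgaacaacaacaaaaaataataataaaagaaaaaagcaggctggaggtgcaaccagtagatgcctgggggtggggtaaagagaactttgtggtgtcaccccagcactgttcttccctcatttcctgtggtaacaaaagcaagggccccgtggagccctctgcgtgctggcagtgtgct
The Cybb stretch lies at chrX:9469295-9469574, minus strand, and the Fermt3 stretch at chr19:7019440-7019719, minus strand, on GRCm38.p6. Cybb holds 1 GAGGAA match, after the start, and 3 matches to the GAAA repeat. Fermt3 holds no GAGGAA and 2 matches to TGTGGT. Neither Ncf1 nor Cyba holds GAGGAA, and Ncf1 has 1 match to the GAAA repeat.

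All 11 membrane and adhesion genes were higher in BAC corneas, with log2 changes of 1.33 to 4.75, where 45.1% of all genes tested were higher. Only Cd53, Cd52, Laptm5 and Lst1 had a PBS mean of at least 0.5 FPKM. The direction of the others was fixed beforehand. Ptprc, the receptor phosphatase that marks nearly all nucleated blood cells, measured 4.44, 4.88, 6.03 and 3.62 FPKM in BAC corneas 1 to 4, against 0.0824, 0.0697, 0.0892 and 0.0945 FPKM in PBS corneas 1 to 4. The ratio of means was 56.5 and the log2 change 2.39 (SE 0.12, limma adjusted p = 2.45e-07). Every PBS library was thus under 0.1 FPKM, and no BAC library was under 3 FPKM. Cd53, a leukocyte tetraspanin, measured 36.0, 45.6, 71.3 and 46.6 FPKM in BAC corneas, against 0.764, 0.809, 1.19 and 0.631 FPKM in PBS corneas. Its log2 change of 4.75 (SE 0.19, limma adjusted p = 6.41e-08) was the largest of the 38 on this scale, which understates genes near 0 in PBS corneas, and ranked 36 among all genes tested. BAC 3 stood above the other BAC libraries for this gene.

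The integrin chains rose with it. Itgb2, the beta chain shared by the leukocyte integrins, measured 15.3, 15.2, 23.3 and 16.4 FPKM in BAC corneas, against 0.0316, 0.0331, 0.391 and 0.0885 FPKM in PBS corneas (log2 change 4.02, SE 0.15, limma adjusted p = 5.16e-08). BAC 3 and PBS 3 were each the high library of their group, and the groups did not overlap. The alpha chains were lower in level. Itgal, whose product pairs with Itgb2 on lymphocytes and other leukocytes, ranged from 1.29 to 2.14 FPKM in BAC corneas and from 0 to 0.0390 FPKM in PBS corneas (log2 change 1.33). Itgax, the alpha chain known from dendritic cells, was at 4.05 ± 0.324 FPKM in BAC corneas and 0.184 ± 0.0784 FPKM in PBS corneas (SD, n = 4 each). Selplg, the ligand by which leukocytes roll on P-selectin, measured 5.96 to 8.35 FPKM in BAC corneas and 0 to 0.114 FPKM in PBS corneas (log2 change 2.86).

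The remaining surface and endosomal genes moved the same way. Cd52, a small glycoprotein anchored to leukocyte membranes, was at 24.6 ± 2.97 FPKM in BAC corneas and 0.811 ± 0.570 FPKM in PBS corneas. Laptm5, a lysosomal protein of blood cells, was at 19.3 ± 0.624 FPKM in BAC corneas and 0.577 ± 0.236 FPKM in PBS corneas, 33.4-fold higher. Cd37, a tetraspanin known best from B cells, had nearly the same level in each BAC cornea, at 2.98 to 3.13 FPKM, against 0.0366 to 0.0968 FPKM in PBS corneas. The B cell marker list had 1 of its 7 genes in the table, Cd79b, and it did not pass. Lst1, a leukocyte transmembrane protein, was at 18.5 ± 5.47 FPKM in BAC corneas and 1.45 ± 0.470 FPKM in PBS corneas, with BAC 4 lowest of its group at 10.98 FPKM. Evi2b, a membrane protein of blood cells, measured 6.37, 4.80, 4.82 and 8.39 FPKM in BAC corneas and was listed at 0 in each PBS cornea. Evi2b shares a strand and sequence with Evi2, so fragments could be counted for either.

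Of 10 genes for actin and motility, 9 were higher and Fermt3 was lower in BAC corneas, where 45.1% of all genes tested were higher and 22.6% lower. Only Lcp1, Hcls1, Fermt3 and Arhgdib had a PBS mean of at least 0.5 FPKM, so the direction of the others was fixed beforehand. Lcp1, the actin-bundling plastin of leukocytes, was at 22.6 ± 5.59 FPKM in BAC corneas and 0.580 ± 0.146 FPKM in PBS corneas, with a log2 change of 3.88, the largest of the 10 on the log2(FPKM + 1) scale. Its ratio of means was 38.9, below those of Cytip at 102.5, Rac2 at 100.8, Was at 69.25 and Nckap1l at 48.97. Coro1a, a leukocyte coronin that binds actin, was at 11.6 ± 1.43 FPKM in BAC corneas and 0.496 ± 0.183 FPKM in PBS corneas. Hcls1, the cortactin relative of blood cells, was at 13.3 ± 1.50 FPKM in BAC corneas and 0.854 ± 0.0594 FPKM in PBS corneas. Nckap1l, the blood-cell scaffold subunit of the WAVE complex, was at 12.2 ± 1.50 FPKM in BAC corneas and 0.249 ± 0.0825 FPKM in PBS corneas. Each of these 4 genes was under 1 FPKM in every PBS library.

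The GTPase module behind this machinery was likewise close to 0 in PBS corneas. Rac2, the blood-cell Rac GTPase that also serves the oxidase, measured 7.78, 8.29, 12.4 and 9.26 FPKM in BAC corneas, against 0.122, 0.0336, 0.0583 and 0.160 FPKM in PBS corneas (log2 change 3.24). Dock2, an exchange factor for Rac in leukocytes, was at 2.18 ± 0.246 FPKM in BAC corneas and 0.0914 ± 0.0178 FPKM in PBS corneas. Was, which couples small GTPases to branched actin, measured 3.24, 3.71, 4.59 and 3.20 FPKM in BAC corneas, against 0.123, 0, 0.0900 and 0 FPKM in PBS corneas. Cytip, a scaffold that binds the cytohesin exchange factors, measured 3.79 to 5.50 FPKM in BAC corneas and 0 to 0.115 FPKM in PBS corneas. None of these 4 genes passed 0.2 FPKM in any PBS library.

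Fermt3 and Arhgdib departed from that picture because PBS corneas already held much of their RNA. Fermt3, the kindlin that blood cells use to activate integrins, measured 9.38, 10.9, 9.59 and 9.40 FPKM in BAC corneas, against 29.2, 32.1, 28.4 and 36.1 FPKM in PBS corneas. It was 3.20-fold lower in BAC corneas (log2 change -1.58, SE 0.09, limma adjusted p = 4.1e-07), and it was the only one of the 38 that fell. Fermt3 (ENSMUSG00000024965.8) lies on the minus strand of chromosome 19 from 6998958 to 7019469 in GRCm38. Trpt1 overlaps it on the other strand and was also lower, at 3.13 ± 0.468 FPKM in BAC corneas and 6.18 ± 0.687 FPKM in PBS corneas; the kit marks strand, but whether counting used strand is not given in the sources used here. Arhgdib, an inhibitor that holds small GTPases in the cytosol of blood cells, measured 74.2, 76.9, 77.8 and 77.3 FPKM in BAC corneas, against 32.0, 17.6, 24.9 and 23.5 FPKM in PBS corneas. It was 3.12-fold higher (log2 change 1.63, SE 0.15, limma adjusted p = 8.13e-06), with BAC libraries nearly equal and PBS libraries spread more widely.

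Of 7 kinase and adaptor genes, 6 were higher in BAC corneas, with log2 changes of 1.35 to 2.87 among those 6. Among all genes tested 45.1% were higher. Vav1, Lcp2, Fgr and Btk had PBS means under 0.5 FPKM, so their direction was fixed beforehand. Vav1, the blood-cell exchange factor for Rac, was at 7.49 ± 1.24 FPKM in BAC corneas and 0.157 ± 0.0539 FPKM in PBS corneas. Lcp2, an adaptor that Syk-type kinases phosphorylate, measured 5.10 to 7.67 FPKM in BAC corneas and 0 to 0.106 FPKM in PBS corneas. Fgr, a Src family kinase of myeloid cells, measured 4.42, 4.67, 7.26 and 5.39 FPKM in BAC corneas, against 0, 0, 0.0876 and 0.0331 FPKM in PBS corneas. Btk, a Tec family kinase of B cells and myeloid cells, measured 2.48, 2.66, 2.69 and 2.80 FPKM in BAC corneas, and PBS 2 was the only PBS library above 0, at 0.0320 FPKM. These 4 genes were nearly absent without BAC.

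The other 3 kinase and adaptor genes were present in both groups. Lyn, a Src family kinase that carries both activating and inhibitory signals, measured 23.7, 25.2, 27.75 and 23.5 FPKM in BAC corneas, against 11.1, 9.98, 8.22 and 7.91 FPKM in PBS corneas (log2 change 1.35, SE 0.11, limma adjusted p = 3.91e-06). Plcg2, the phospholipase that acts below Btk and Syk, was at 10.4 ± 0.896 FPKM in BAC corneas and 3.34 ± 0.383 FPKM in PBS corneas, 3.10-fold higher. Syk, the kinase that starts signalling from immune receptors and integrins, measured 6.62, 8.10, 9.71 and 8.59 FPKM in BAC corneas, against 6.42, 7.94, 6.96 and 7.35 FPKM in PBS corneas. BAC 1 lay inside the PBS range, and the log2 change of 0.17 (SE 0.11, limma adjusted p = 0.187) equalled the median shift of all genes within 0.02. Without BAC 1 the change was 0.26 and passed (limma adjusted p = 0.0368), while after median-of-ratios scaling or quantile normalization it was -0.021 and -0.05.

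Both phosphatase genes were higher, by unlike amounts, where 45.1% of all genes tested were higher. For Inpp5d, with a PBS mean under 0.5 FPKM, the direction was fixed beforehand. Inpp5d, a lipid phosphatase of blood cells that opposes phosphoinositide 3-kinase, was at 4.23 ± 0.300 FPKM in BAC corneas and 0.103 ± 0.0289 FPKM in PBS corneas, 41.0-fold higher. Ptpn6, a tyrosine phosphatase recruited by inhibitory receptors and also known from epithelial cells, measured 13.8, 14.9, 16.5 and 12.3 FPKM in BAC corneas, against 10.97, 9.395, 11.03 and 9.90 FPKM in PBS corneas. The groups did not overlap, and the log2 change was 0.44 (limma adjusted p = 0.00278), or 0.25 above the median of all genes. After median-of-ratios scaling it was 0.23 and no longer passed (limma adjusted p = 0.0634).

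All 4 NADPH oxidase genes were higher in BAC corneas, where 45.1% of all genes tested were. Cybb, Ncf1 and Ncf4 had PBS means under 0.5 FPKM and were tested only because BAC corneas were high. Their direction was thus fixed beforehand, and that of Cyba was not. Cybb, the electron-carrying subunit of the membrane core, measured 8.67, 9.30, 8.33 and 6.95 FPKM in BAC corneas, against 0.370, 0.156, 0.548 and 0.422 FPKM in PBS corneas (log2 change 2.76, SE 0.11, limma adjusted p = 7.61e-08). Cyba, its partner, which also joins other NADPH oxidases outside blood cells, measured 38.5, 39.0, 41.5 and 39.8 FPKM in BAC corneas, against 2.49, 1.78, 1.94 and 4.11 FPKM in PBS corneas (log2 change 3.55, SE 0.17, limma adjusted p = 1.84e-07). Cyba was the highest of the 4 in each library of both groups, and neither gene's groups overlapped. Ncf1, the organiser that brings the cytosolic subunits to the membrane, measured 7.88, 8.17, 9.17 and 10.4 FPKM in BAC corneas, against 0.106, 0.0975, 0.231 and 0.289 FPKM in PBS corneas (log2 change 3.06). Ncf4, a cytosolic subunit that binds phosphoinositides, measured 5.84, 7.36, 9.20 and 7.62 FPKM in BAC corneas and was listed at 0 in PBS corneas 1, 2 and 4, with PBS 3 at 0.192 FPKM. Both cytosolic subunits were below 0.3 FPKM in every PBS library.

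Of 12 other genes of this enzyme family, 9 were tested, of which 5 were higher and 2 lower. Of these 9, 8 had a PBS mean of at least 0.5 FPKM, 4 of them higher and 2 lower. That is close to the shares of all genes tested, 45.1% higher and 22.6% lower. Hvcn1, a proton channel that balances the oxidase's charge, was at 4.99 ± 0.716 FPKM in BAC corneas and 0.437 ± 0.271 FPKM in PBS corneas. Nox4, an oxidase of stromal and vessel cells, was at 4.18 ± 0.449 FPKM in BAC corneas and 0.930 ± 0.193 FPKM in PBS corneas. Genes of the epithelial dual oxidases moved in both directions. Duox1 was higher, at 6.07 ± 1.04 FPKM in BAC corneas and 1.77 ± 0.356 FPKM in PBS corneas, and its maturation factor Duoxa1 was higher, at 6.09 ± 0.854 FPKM in BAC corneas and 2.36 ± 0.236 FPKM in PBS corneas. Duox2 was lower, at 0.283 ± 0.0568 FPKM in BAC corneas and 1.11 ± 0.530 FPKM in PBS corneas, and its maturation factor Duoxa2 was lower at 0.713 ± 0.191 FPKM in BAC corneas and 2.096 ± 1.11 FPKM in PBS corneas, with groups that overlapped. Nox1, Nox3 and Noxa1 were not among the genes of the table.

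The 4 transcription factor genes were all higher, where 45.1% of all genes tested were. For Irf8 and Ikzf1, with PBS means under 0.5 FPKM, the direction was fixed beforehand. Spi1, which encodes PU.1, measured 7.69, 9.44, 11.1 and 9.05 FPKM in BAC corneas, against 0.622, 0.631, 0.625 and 0.509 FPKM in PBS corneas (log2 change 2.68, SE 0.10, limma adjusted p = 5.25e-08). The PBS libraries were close to each other, and each BAC library was more than 10 times as high. Irf8, a factor of monocytes and dendritic cells, was at 2.31 ± 0.157 FPKM in BAC corneas and 0.182 ± 0.0368 FPKM in PBS corneas; the read-through gene Gm20388 overlaps it on the same strand. Ikzf1, the zinc finger factor of blood progenitors and lymphocytes, measured 2.11, 2.63, 0.713 and 2.40 FPKM in BAC corneas, against 0.101, 0, 0.107 and 0.114 FPKM in PBS corneas (log2 change 1.40). BAC 3, the highest BAC library for most of the 38 genes, was by far the lowest for Ikzf1. Irf5, a factor of inflammatory macrophages that is also expressed outside blood, was at 6.88 ± 0.574 FPKM in BAC corneas and 4.58 ± 0.650 FPKM in PBS corneas (log2 change 0.50, limma adjusted p = 0.00165). After quantile normalization its change was 0.23 and no longer passed (limma adjusted p = 0.0565). Tnpo3 overlaps Irf5 on the other strand and was also higher, at 10.25 ± 2.00 FPKM in BAC corneas and 7.36 ± 1.46 FPKM in PBS corneas. The part of this overlap in the Irf5 values was not tested.

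Many of the 38 genes have a relative that most cell types use, and 17 such pairs were compared within each library. In all 17 pairs the gap between member and relative changed between groups (exact permutation test, two-sided, p = 0.0286 each, the smallest that 70 assignments allow; adjusted p = 0.0286 over the 17 pairs). The leukocyte gene moved further upward in 15 pairs, and its relative did in the other 2. In 9 of the pairs the leukocyte gene had a PBS mean under 0.5 FPKM and was tested only because BAC corneas were high. Its own rise, which enters the gap, was thus fixed beforehand. Gaps of other gene pairs were not measured, and 63.5% of all genes tested separated the groups alone. The count of 17 is therefore a description. Of the other 8 pairs, the leukocyte gene moved further upward in 6 and its relative in 2. Among the relatives 6 were higher, 4 were lower and 7 did not pass; after median-of-ratios scaling these counts were 5, 7 and 5. The relative had the higher mean in 14 pairs in BAC corneas and in 15 pairs in PBS corneas.

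Rac1, the Rac GTPase of all cells, was at 113 ± 3.30 FPKM in BAC corneas and 97.4 ± 4.48 FPKM in PBS corneas, a log2 change of 0.22 that was -0.00 after median-of-ratios scaling. Rac2 made up 7.69% of the FPKM of the pair in BAC corneas and 0.096% in PBS corneas. For the WAVE scaffold, Nckap1 was lower, at 65.4 ± 1.92 FPKM in BAC corneas and 93.4 ± 3.33 FPKM in PBS corneas, while Nckap1l was higher. For the exchange factors, Dock1 was lower, at 14.3 ± 1.55 FPKM in BAC corneas and 36.1 ± 2.73 FPKM in PBS corneas, while Dock2 was higher. Vav1 made up 52.1% of the FPKM of Vav1 and Vav2 together in BAC corneas and 2.54% in PBS corneas. With Vav3, which was also higher and was added after its values had been seen, it made up 31.8% in BAC corneas and 1.34% in PBS corneas. Coro1b, another coronin added in the same way, did not pass, at 68.2 ± 5.92 FPKM in BAC corneas and 63.6 ± 5.43 FPKM in PBS corneas. Laptm4a and Coro1c were also lower, with log2 changes of -0.36 and -0.59.

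The 7 relatives that did not pass had log2 changes of -0.16 to 0.20. Pls3, the plastin of other cells, was at 97.7 ± 4.81 FPKM in BAC corneas and 98.7 ± 8.73 FPKM in PBS corneas. Cttn, cortactin itself, was at 71.55 ± 0.504 FPKM in BAC corneas and 71.1 ± 4.23 FPKM in PBS corneas. The others were Wasl, Plcg1, Vav2, Inppl1 and Ptpn11. Ptpn11, Pls3 and Cttn were lower after median-of-ratios scaling. Itgb1, the beta chain of matrix-binding integrins, was higher, at 197 ± 19.1 FPKM in BAC corneas and 68.9 ± 4.36 FPKM in PBS corneas, but the gap to Itgb2 still changed by 2.52. For Cybb and Nox4 the gap changed by 1.34, and for Arhgdib and Arhgdia by 0.93.

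The 2 pairs that went the other way were those of Fermt3 and Lyn. Fermt2, the kindlin of stromal and other adherent cells, was at 13.1 ± 3.12 FPKM in BAC corneas and 1.73 ± 0.821 FPKM in PBS corneas (log2 change 2.40, limma adjusted p = 1.5e-05). Fermt3 made up 42.8% of the FPKM of the 2 genes in BAC corneas and 94.8% in PBS corneas. Fermt1, the epithelial kindlin, was looked at after these values had been seen, and was lower like Fermt3, at 8.80 ± 0.668 FPKM in BAC corneas and 20.1 ± 1.00 FPKM in PBS corneas (log2 change -1.11, limma adjusted p = 8.5e-07). Fyn, a Src family kinase of T cells and of many other cells, was at 6.74 ± 0.297 FPKM in BAC corneas and 0.544 ± 0.162 FPKM in PBS corneas. Its 12.4-fold difference exceeded the 2.69-fold difference of Lyn, which made up 78.8% of their FPKM in BAC corneas and 94.5% in PBS corneas.

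**Figure D2:**
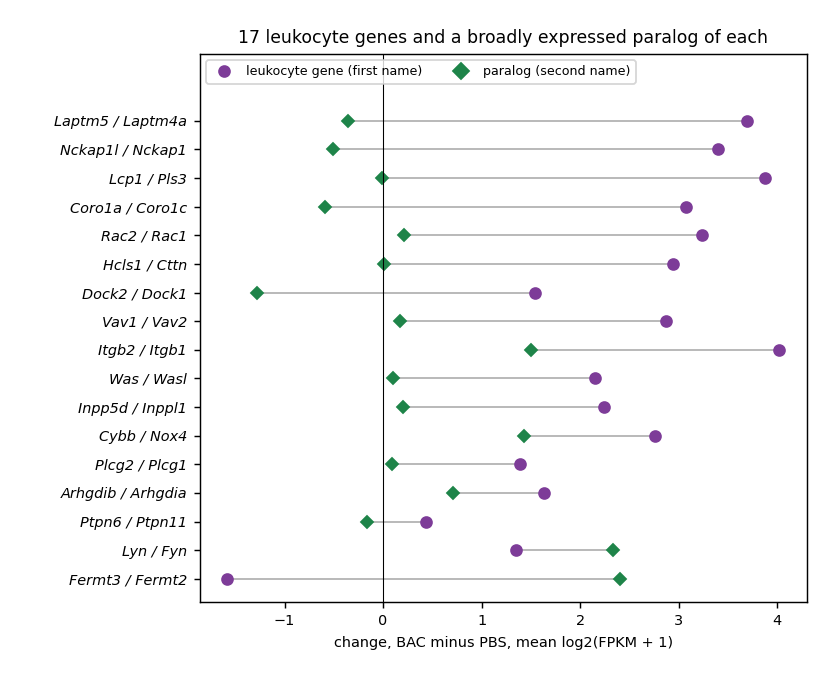
Change in mean log2(FPKM + 1), BAC minus PBS, on the x axis for 17 leukocyte genes (circles) and a broadly expressed relative of each (diamonds), joined by a line. The leukocyte gene lies to the right of its relative in 15 pairs and to the left for Lyn and Fermt3.

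The transcript table showed which forms carried these changes. It held 66 transcripts of the 38 genes, 22 genes having 1 and 16 having more. Of 57 tested, 42 were higher and 3 lower, against 23.0% and 11.6% of all 23349 transcripts tested. Of the 57, 32 had a PBS mean under 0.5 FPKM and could only come out higher or not pass. Of the other 25, 13 were higher, 3 lower and 9 did not pass. The 3 lower ones were the single form of Fermt3 and 2 forms of Arhgdib. Arhgdib-201 was at 97.3 ± 2.04 FPKM in BAC corneas and 10.4 ± 5.14 FPKM in PBS corneas (log2 change 3.21, limma adjusted p = 5.76e-05). Arhgdib-202 and Arhgdib-203 were lower, at 6.91 ± 1.83 and 7.27 ± 1.20 FPKM in BAC corneas, against 14.2 ± 4.77 and 15.2 ± 5.18 FPKM in PBS corneas. Arhgdib-201 made up 87.2%, 87.9%, 84.1% and 87.3% of the gene's transcript FPKM in BAC corneas, against 35.8%, 29.3%, 23.6% and 14.3% in PBS corneas. Forms of Arhgdib thus moved in both directions, and the shares did not overlap, though the split between forms is uncertain, as described below.

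Shares of the leading form were compared for 7 genes that were picked after their transcript values had been seen. Lyn-201 made up 71.5% ± 1.99 in BAC corneas and 61.6% ± 9.54 in PBS corneas, and Syk-203 88.2% ± 7.82 in BAC corneas and 59.7% ± 24.8 in PBS corneas. Like Arhgdib-201, neither overlapped between groups (exact permutation test, two-sided, p = 0.0286 each, the smallest that 70 assignments allow), and with adjustment over the 7 genes p was 0.0667. Syk, whose gene total did not pass, had a larger share of its main form in each BAC library, with PBS 1 far below the other PBS libraries at 23.4%. The leading form of Ptpn6 in BAC corneas, which begins at 124733154 on chromosome 6, downstream of the starts of the gene's other forms, made up 23.1% to 64.8% in BAC corneas and 0.131% to 49.6% in PBS corneas (exact permutation test, two-sided, p = 0.0857). Cyba, Irf5 and Lcp1 had p of 0.143 or more. The split between forms was unstable within a group, since 1 form of Lcp1 took all of the gene's FPKM in BAC 1 and 1.84% in BAC 4, so the shares are uncertain.

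**Figure D3:**
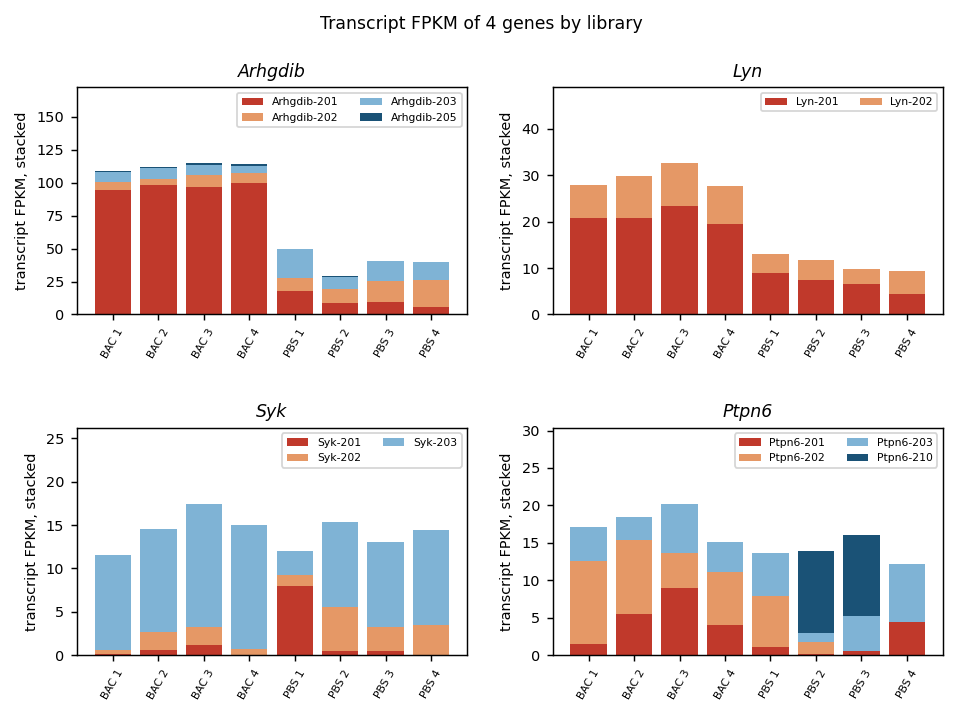
Stacked transcript FPKM on the y axis of 4 genes in each of 4 BAC and 4 PBS libraries on the x axis. Arhgdib-201 fills most of each BAC bar and a smaller part of each PBS bar, at 86.6% of the gene's transcript FPKM in BAC corneas and 25.8% in PBS corneas.

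The 4 BAC libraries did not hold the genes at equal levels. BAC 3 was the highest BAC library for 24 of the 38 genes, BAC 2 for 11 and BAC 4 for 3, and BAC 1 was the lowest for 18. The summed level of the 38 genes was 451, 489, 559 and 464 FPKM in BAC corneas 1 to 4, against 108, 93.0, 99.6 and 107 FPKM in PBS corneas 1 to 4. Neutrophil markers summed to 494, 486, 1392 and 729 FPKM in BAC corneas 1 to 4, so BAC 3 was also the library highest in these. BAC 3 was also highest for macrophage markers, which summed to 1040, 1028, 1104 and 856 FPKM, for inhibitory receptors, at 126, 125, 175 and 148 FPKM, and for platelet and red cell markers, at 77.9, 107.5, 157 and 103 FPKM in BAC corneas 1 to 4. Other lists peaked elsewhere. T and natural killer cell markers were at 14.0 FPKM in BAC 2 and 11.7 FPKM in BAC 3. Dendritic and Langerhans cell markers were at 284 FPKM in BAC 2 and 244 FPKM in BAC 3. Mast cell markers were highest in BAC 4, at 29.6 FPKM, and the B cell marker Cd79b in BAC 2, at 1.04 FPKM. The part of these cells in the order of libraries was not tested. Cd53, Itgb2, Lcp1, Fgr, Rac2 and Itgal were among the genes highest in BAC 3. Evi2b and Ncf1 were highest in BAC 4, and Cybb, Irf8, Inpp5d and Plcg2 in BAC 2. Without BAC 3 the same 36 genes lay above all PBS values, which was fixed beforehand, since all 4 of their BAC values did.

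**Figure D4:**
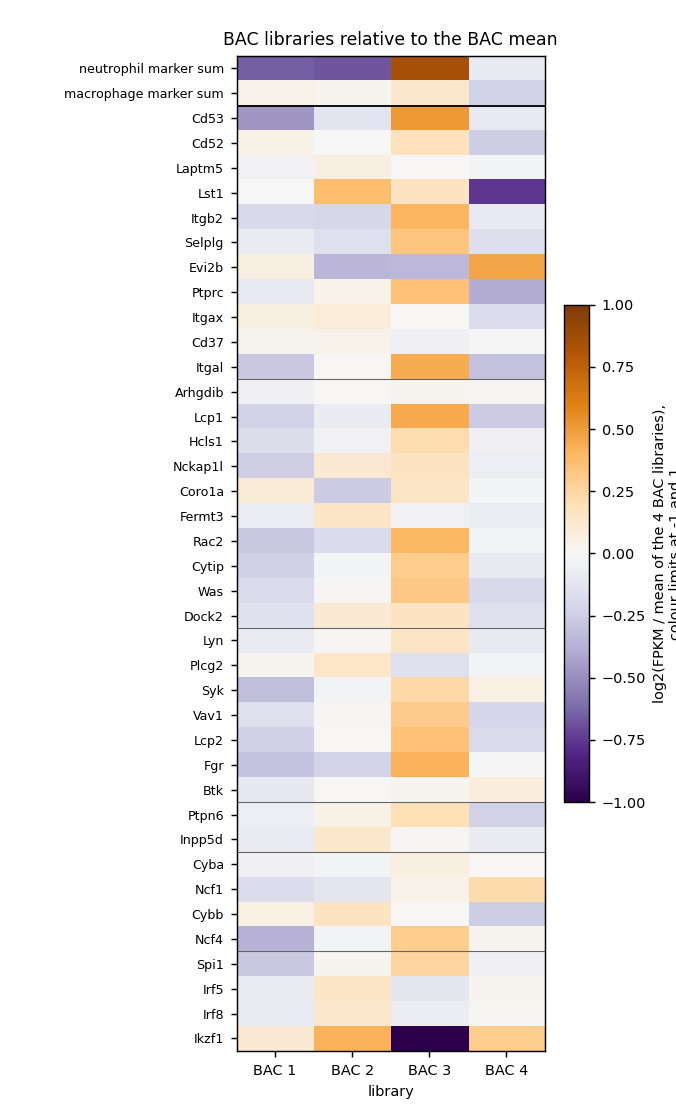
Level of each gene in each BAC library relative to the mean of the 4 BAC libraries, as a log2 ratio (colour, limited at -1 and 1), below the summed neutrophil and macrophage markers. BAC 3 is the highest library for 24 of 38 genes and for the neutrophil sum, and Ikzf1 is at 0.713 FPKM there.

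Levels of the other genes were also set against Ptprc, the pan-leukocyte gene. With 0.1 FPKM added to both genes, 21 of the other 37 had ratios that separated the groups fully (exact permutation test, two-sided, p = 0.0286 each, the smallest that 70 assignments allow). Of these, 15 were lower and 6 higher relative to Ptprc in BAC corneas. The added 0.1 FPKM exceeds Ptprc in every PBS library, so it weighs on these directions. Without it the ratio of means of Itgal, among the 15, was 0.333 in BAC corneas and 0.249 in PBS corneas. That of Cd53, among the 6, was 10.5 in BAC corneas and 10.1 in PBS corneas. Adjusted over the 37 genes p was 0.0503, so none passed. With 1 FPKM added in place of 0.1 FPKM 31 of the 37 passed, and 23 and 22 passed without PBS 3 or PBS 4. As a ratio of means with nothing added, Fermt3 was at 2.07 times the Ptprc level in BAC corneas and 374 times in PBS corneas. Syk was at 1.74 times the Ptprc level in BAC corneas and 85.3 times in PBS corneas, and Ptpn6 at 3.03 times in BAC corneas and 123 times in PBS corneas. Irf5, Lyn, Plcg2 and Arhgdib followed. Ptprc itself was under 0.1 FPKM in every PBS library, so a gene present in PBS corneas had to depart from it unless it rose as far, and these ratios are descriptions. Btk, Was, Vav1, Laptm5 and Ncf1 were among the 16 whose ratios did not separate the groups.

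Other genes of the same pathways moved in both directions. Of 27 further kinase and adaptor genes, 23 were tested, of which 19 were higher and 4 lower. With quantile normalization 15 were higher and 4 lower. Of the 23, 11 had a PBS mean under 0.5 FPKM and could only come out higher. Of the other 12, 8 were higher and 4 lower, where 45.1% of all genes tested were higher and 22.6% lower. Fyb, an adaptor that binds the Lcp2 protein, was at 5.08 ± 0.495 FPKM in BAC corneas and 0.321 ± 0.0937 FPKM in PBS corneas. Dok3, an adaptor that dampens immune receptor signals, and Lat2, a membrane adaptor of blood cells, rose by 2.17 and 1.70 on the log2 scale. The 4 lower genes included Src, at 17.1 ± 1.17 FPKM in BAC corneas and 26.05 ± 1.63 FPKM in PBS corneas, and Csk, which restrains Src family kinases, at 21.2 ± 1.74 FPKM in BAC corneas and 38.2 ± 1.70 FPKM in PBS corneas. The others were Grap2, an adaptor that binds the Lcp2 protein, and Prkcd, a protein kinase C; Prkcd did not pass when libraries were rescaled to one total.

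Of 15 further integrin and rolling genes, 13 stood in the table on 14 lines, of which 11 were higher and 1 lower. Of these lines 8 had a PBS mean of at least 0.5 FPKM, 5 of them higher and 1 lower. The shares over all genes tested were 45.1% higher and 22.6% lower. Selp, the endothelial P-selectin that binds the product of Selplg, was at 4.14 ± 0.543 FPKM in BAC corneas and 0.0430 ± 0.0239 FPKM in PBS corneas. Icam1, a ligand of leukocyte integrins, was at 14.5 ± 1.75 FPKM in BAC corneas and 1.61 ± 0.301 FPKM in PBS corneas. Esam and Apbb1ip, an endothelial adhesion protein and an integrin activator of blood cells, rose by 3.01 and 2.17 on the log2 scale. Itgb7, an integrin beta chain of lymphocytes, was lower, at 9.59 ± 1.27 FPKM in BAC corneas and 14.3 ± 1.99 FPKM in PBS corneas. Itgam, the myeloid alpha chain that pairs with Itgb2, was named after its values had been seen. It stands on 2 lines, at 19.05 ± 8.53 and 10.1 ± 6.07 FPKM in BAC corneas, against 20.1 ± 11.8 and 15.4 ± 13.4 FPKM in PBS corneas, and neither passed.

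All 15 tested lines of the inhibitory receptor list were higher, or 14 after quantile normalization. Of these lines 12 had a PBS mean under 0.5 FPKM, so their direction was fixed beforehand, and the other 3 were higher too, where 45.1% of all genes were. Pirb, an inhibitory immunoglobulin-type receptor, was at 12.1 ± 1.83 FPKM in BAC corneas and 0.0963 ± 0.0392 FPKM in PBS corneas. Fcgr2b, the inhibitory IgG receptor, was at 18.15 ± 2.57 FPKM in BAC corneas and 0.395 ± 0.0765 FPKM in PBS corneas. Pilra rose by 2.01 and the 2 lines of Lilrb4a by 4.20 and 2.83 on the log2 scale. These receptors recruit phosphatases such as the products of Ptpn6 and Inpp5d.

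Of 22 further genes of blood-cell transcription, 16 were tested, with 12 higher and 4 lower. Among the 13 with a PBS mean of at least 0.5 FPKM, 9 were higher and 4 lower. The shares over all genes tested were 45.1% and 22.6%. Runx1, a factor of blood stem cells, was at 8.27 ± 0.779 FPKM in BAC corneas and 2.23 ± 0.293 FPKM in PBS corneas. Maf, Fli1 and Nfam1, the last of which encodes a membrane adaptor that activates NFAT, rose by 2.43, 2.58 and 2.52 on the log2 scale. The Ikaros relatives went against Ikzf1. Ikzf3 was lower, at 0.327 ± 0.0240 FPKM in BAC corneas and 1.47 ± 0.132 FPKM in PBS corneas, and Ikzf2 was lower, at 15.96 ± 2.22 FPKM in BAC corneas and 28.7 ± 2.26 FPKM in PBS corneas. Myb, a factor of progenitor cells, and Irf1, an interferon response factor, fell by 0.62 and 0.66, and the groups overlapped for Irf1.

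The remaining marker lists went both ways, where 45.1% of all genes tested were higher and 22.6% lower. Of 5 mast cell markers tested, 4, all under 0.5 FPKM in mean in PBS corneas, were higher and Kit was lower, and the list summed to 12.2 to 29.6 FPKM in BAC corneas and 25.2 to 36.3 FPKM in PBS corneas. Of 7 platelet and red cell markers, 4 were higher and 3 lower, and the list summed to 77.9 to 157 FPKM in BAC corneas and 6.86 to 14.9 FPKM in PBS corneas.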

How the data were processed

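RNA was taken from corneas with Trizol and made into stranded libraries, per the labels' protocols. The submitters' processing notes name the build GRCm38, StringTie 1.3.3 and HISAT2 2.1.0. The authors deposited FPKM for 13437 genes and 25635 transcripts; values summed to 268629 to 283538 FPKM per library. The log2 changes and p-values the authors deposited were not used for tests. The authors' deposited tables of differing genes held 34 of the 38 genes as higher and Fermt3 as lower, without Syk, Ptpn6 and Irf5. Low values were whole multiples of a step too rarely to recover reads (18.0% to 49.3% of the 300 lowest per library within 0.05 of one), so depth is unknown. An exact 0 is called listed at 0.

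Genes with a mean of at least 0.5 FPKM over 8 libraries were tested on log2(FPKM + 1) by limma 3.58.1 (R 4.3.3), with a trended prior, two-sided, and Benjamini-Hochberg adjustment over 12967 genes. Transcripts were tested alike. The test was checked on simulated data. Fold changes are ratios of mean FPKM, and log2 changes understate low genes. Pairs and ratios to Ptprc used exact permutation tests over 70 assignments, the ratios with 0.1 FPKM added. Figures and motif counts used Python 3.11.15 and matplotlib 3.10.9. Of the 38 genes 33 had the same identifier and position in GENCODE M21; 2 overlap a coding gene on the same strand and 11 on the other strand.

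The 38 genes, the other lists and the pairs were chosen with earlier results of these data known. Genes named were the 38, their broad relatives, up to 4 genes per other list with the smallest adjusted p, and genes going against most of their list. Others are marked. A few genes of these pathways are not reported here. Alternatives were another pseudocount, no filter and a filter at 2, 3 rescalings, an untrended prior, a replicate block and each library left out.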

Additional observations from a re-analysis of the deposited data

Results flagged for a closer look

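Among 224 groups of 4 values, 21 held 1 library far from the other 3; 10 of the 21 lay among 75 groups of the 38 genes. Chance gives about 1 in 20 groups, but not where the other 3 libraries are listed at 0, as in 5 of the 21, so the number of such libraries is not read against chance. Libraries far above the others of their group were, in FPKM, Itgb2 in BAC 3 at 23.3 (others at most 16.4), Selplg in BAC 3 at 8.35 (others at most 6.26) and Fermt3 in BAC 2 at 10.9 (others at most 9.59). In PBS 3 Itgb2 stood at 0.391 and Ncf4 at 0.192, and Btk stood at 0.0320 in PBS 2, with the other PBS libraries of Ncf4 and Btk listed at 0. Libraries far below were Dock2 in PBS 4 at 0.0651, Spi1 in PBS 4 at 0.509, Irf5 in PBS 3 at 3.61 and Ikzf1 in PBS 2, listed at 0.

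Among other genes BAC 3 was far above for Fermt2 at 17.75 and Lilrb4a at 10.7 FPKM. BAC 2 was far above for Grap2 at 0.533 and Selp at 4.95 FPKM, and BAC 4 for Arhgdia at 136 FPKM. PBS 4 was far above for Csk at 40.75 FPKM, Mmp9 at 0.0808 FPKM and Il7r at 0.0397 FPKM, and PBS 2 for Cd2 at 0.0293 FPKM. PBS 3 was far above for Duox1 at 2.30 FPKM, and Clec4d was listed at 0 in PBS 3. BAC 3, also the library with the highest neutrophil marker sum, stood apart for Itgb2, Selplg, Fermt2 and Lilrb4a, and the part of neutrophils in this was not tested.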

How the results depend on the processing

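The count of genes higher with BAC stayed between 35 and 37 of 38 under every alternative but a filter at a mean of 2 FPKM, where it was 29 of the 31 tested, and Fermt3 was lower in each. The median change of the 38 genes was 4.38 with a pseudocount of 0.1 and 2.31 after quantile normalization, beside 2.65, and 2.55 to 2.72 with a library left out. Over all genes 5845 were higher and 2926 lower. Median-of-ratios scaling gave 4431 higher and 4237 lower, and quantile normalization 3946 higher and 4967 lower. The change of Syk was -0.021 with median-of-ratios scaling and -0.05 with quantile normalization, and the cause was not tested. The number of genes whose ratio to Ptprc passed was 31 with 1 FPKM added, and 0 to 23 with a library left out. Genes whose ratios separate the groups share the smallest p, so they pass the adjustment together or not at all. What changed the number that separated was not tested. Same-numbered libraries correlated at 0.053, 0.109, 0.121 and 0.114 in their deviations, and BAC 1 correlated best with PBS 2, at 0.104, so the numbers were not taken as pairing. With a replicate block 36 genes were higher and 1 lower, and 0 of 17 pairs passed, since 4 pairs cannot give a p under 0.125. Depth limits the genes near 0 in PBS corneas, whose ratios are imprecise.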
